A study of Mus musculus with 16 samples.

Results

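Krt7, Krt8, Krt18, Krt19 and Krt20, the keratins of simple (single-layered) epithelia, were followed in whole mouse kidney by RNA sequencing. They are 5 of the 40472 genes in the deposited count table, found by matching its Ensembl identifiers to these 5 symbols. The 16 libraries of poly(A) RNA came from male C57BL/6 mice, labelled as 12 weeks of age, and formed 4 groups of 4. IRP kidneys had ischemia reperfusion, a surgical stop and return of blood flow, with PJ34, an inhibitor of poly(ADP-ribose) polymerases (PARP). IRV kidneys had ischemia reperfusion with vehicle, NP kidneys had PJ34 without injury, and NV kidneys had vehicle without injury. The study set out to follow the inhibitor beyond the first days after injury, but the sources used here do not give the day of collection. The replicate numbers are not said to mark separate animals, so a p-value here measures only how far these libraries spread, which may be technical.

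Keratin filaments are built from pairs of a type II chain (here Krt7 and Krt8) and a type I chain (here Krt18, Krt19 and Krt20). Krt8 and Krt18 form the basic pair of simple epithelia, Krt7 and Krt19 are typical of ducts, and Krt20 is best known from gut epithelium and the surface cells of urothelium. In the healthy kidney these keratins belong mainly to collecting duct and other distal epithelium and are scarce in proximal tubules. Injured tubules of mice and humans make more of them, and they are used as markers of injured, dedifferentiated tubular cells. In whole-tissue RNA, more cells of a type and more RNA per cell cannot be told apart, and counts do not show which cells carried a transcript.

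All 5 keratins passed the filter on low counts, a cut-off of 6.29 CPM (counts scaled to the size of the library) in at least 4 libraries. Krt7 and Krt8 were over it in all 16 libraries. The filter scales by the library totals alone, so its CPM differ a little from the CPM printed elsewhere, which carry the TMM scaling too. By it Krt18 was over the cut-off in 4 IRP, 4 IRV, 2 NP and 1 NV libraries. Krt19 reached it in 4 IRP and 3 IRV libraries and Krt20 in 2 IRP and 3 IRV libraries, and neither reached it in any NP or NV library. Krt19 and Krt20 thus entered the test through the injured kidneys alone. Krt18 also needed them, since its NP and NV libraries over the cut-off fell short of 4.

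By depth there were 2 sets of libraries, and the sets run across the groups. The deep libraries, all 4 of IRP with replicates 3 and 4 of IRV, had totals of 4963638 to 6169748 counts. The other 10, the shallow libraries, had totals of 973812 to 1659983. All IRP kidneys were therefore compared with NP kidneys across sets, while IRV held libraries of both. The 22 proximal tubule genes used as markers of the tissue had counts in every library, with a summed level of 13134 to 35834 CPM. The injury fold changes of the 5 keratins are therefore given also with the set as a term of the model or within a set. Only IRV holds both sets, so the set term is estimated from its libraries. IRV against NV with the set as a term thus rests mainly on IRV replicates 1 and 2. The shallow libraries alone use the same 2, so these are not separate checks. Counts over gene lists are given also with the set as a term. Shares and ratios of the keratins were compared without the set.

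The stretches around the gene starts are shown because Krt8 and Krt18, a type II and a type I gene, lie next to each other on chromosome 15 and both were higher after injury. Their RefSeq starts are 23874 bases apart in GRCm38.p6, and the genes are read away from each other. RefSeq entries were matched for 4 of the 5 keratins; Krt19 had no entry in the table used. Each window runs from 120 bases before the start to 30 bases after it, 5′ to 3′ on the gene's strand, and capitals mark motif matches on either strand. The windows are chr15:101412283-101412432 (plus strand) for Krt7, chr15:102004313-102004462 (minus strand) for Krt8, chr15:102028096-102028245 (plus strand) for Krt18 and chr11:99438124-99438273 (minus strand) for Krt20.
Krt7: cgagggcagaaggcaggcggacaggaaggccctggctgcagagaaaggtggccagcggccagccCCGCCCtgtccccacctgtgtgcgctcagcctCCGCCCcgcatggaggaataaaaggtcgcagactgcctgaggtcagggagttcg
Krt8: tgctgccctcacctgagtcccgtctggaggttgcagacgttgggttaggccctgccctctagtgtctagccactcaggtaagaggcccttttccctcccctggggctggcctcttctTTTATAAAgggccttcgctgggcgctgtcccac
Krt18: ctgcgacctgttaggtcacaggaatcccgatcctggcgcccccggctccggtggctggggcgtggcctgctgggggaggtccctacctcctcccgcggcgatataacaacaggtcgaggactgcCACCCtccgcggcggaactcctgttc
Krt20: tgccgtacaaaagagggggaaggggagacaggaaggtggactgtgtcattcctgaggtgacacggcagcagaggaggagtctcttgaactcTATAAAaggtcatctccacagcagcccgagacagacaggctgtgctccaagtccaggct
For motif searches on both strands, the TATA box was spelled TATAAA. The GC box was spelled GGGCGG. The site of Krüppel-like factors was spelled CACCC and that of AP-1 factors TGANTCA. Krt20 held TATAAA at bases -29 to -24 from the start, and Krt8 held it on both strands in overlapping matches, at -3 to 3 and -1 to 5. Krt7 held GGGCGG at -56 to -51 and at -24 to -19, and Krt18 held CACCC at 5 to 9. None of the 4 windows held TGANTCA. Among all 32851 RefSeq windows of this length, 7.16% held TATAAA, 29.1% GGGCGG, 36.8% CACCC and 4.16% TGANTCA. These are matches of letters, not measured sites.

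In length-scaled levels, Krt8 was the most abundant of the 5 in every group. Per kilobase of the longest coding transcript, it averaged 49.7 ± 8.71 CPM in IRP, 48.3 ± 7.15 in IRV, 23.5 ± 1.52 in NP and 26.4 ± 3.82 in NV (CPM per kilobase, SD, n = 4 each, as below). Krt7 averaged 17.6 ± 1.28 in IRP, 15.2 ± 0.912 in IRV, 11.7 ± 1.81 in NP and 12.4 ± 1.73 CPM per kilobase in NV. Krt18 averaged 18.4 ± 5.84 in IRP, 14.7 ± 2.73 in IRV, 5.06 ± 3.42 in NP and 4.95 ± 1.47 CPM per kilobase in NV. In uninjured kidneys the order was Krt8, Krt7, Krt18, and in injured kidneys Krt7 and Krt18 lay within each other's spread. Krt19 averaged 7.98 ± 2.78 in IRP, 5.75 ± 2.15 in IRV, 1.04 ± 0.781 in NP and 0.397 ± 0.483 CPM per kilobase in NV. Krt20 averaged 2.73 ± 1.86 in IRP, 4.46 ± 2.20 in IRV, 0.814 ± 0.487 in NP and 1.01 ± 0.972 CPM per kilobase in NV. Krt19 and Krt20 were the lowest 2 in every group, and their spreads overlapped in IRV, NP and NV.

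**Figure D1:**
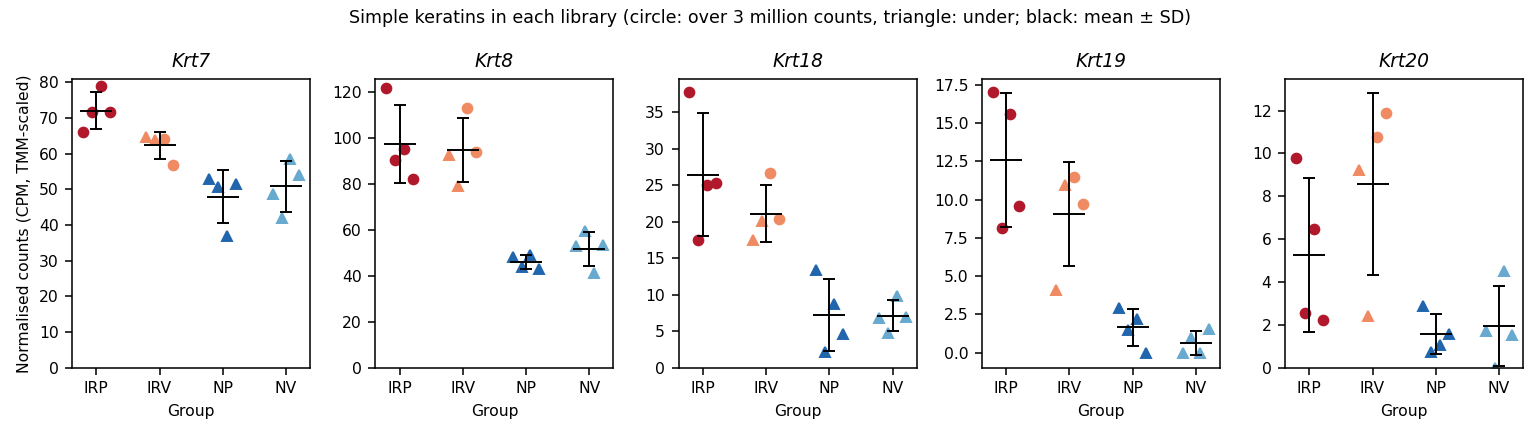
Normalised counts (CPM on TMM-scaled library sizes) of the 5 keratins in the 16 libraries, by group, with the mean and SD of 4 libraries in black; circles are deep and triangles shallow libraries. Krt8, Krt18 and Krt19 sit higher in every IRP and IRV library than in every NP and NV library, with Krt18 at 17.5 to 37.8 CPM against 2.23 to 13.5 CPM, while Krt20 overlaps.

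Injury without the inhibitor was read from IRV against NV. Krt8, Krt18, Krt19 and Krt20 rose and Krt7 did not pass the test, so 4 of the 5 keratins were higher. Of all 13614 genes tested, 15.9% were higher in this comparison. Krt19 and Krt20 passed the filter through the injured kidneys alone, and Krt18 would not have passed without them. The calls of all 3 are thus not independent of this comparison. The fold changes were ordered Krt7, Krt8, Krt18, Krt20, Krt19 from small to large. The type I chains were the 3 with the largest and also the 3 with the lowest counts, so chain type and abundance cannot be told apart. In IRP against NP Krt18 stood above Krt20, at 1.94 and 1.76.

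Krt8, the common type II partner, had 92.5, 79.0, 113 and 94.0 CPM in IRV replicates 1 to 4, against 53.0, 59.3, 41.4 and 53.3 CPM in NV replicates 1 to 4. Every IRV library was above every NV library, and the shallow and deep IRV libraries overlapped. Krt8 rose by 0.88 ± 0.15 on the log2 scale (SE; 95% interval 0.57 to 1.19; adjusted p = 0.000404, edgeR). With the library set in the model the difference was 0.72 (adjusted p = 0.012, edgeR), and among shallow libraries alone, with 2 of IRV left beside NV, it was 0.71 (adjusted p = 0.016, edgeR). A Krt8 pseudogene listed in the table had 0 to 3.89% of the Krt8 count in a library, and reads shared between them cannot be assigned with certainty.

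Krt7, the ductal type II chain, had 64.8, 63.8, 64.0 and 56.8 CPM in IRV, against 48.7, 42.1, 58.5 and 54.1 CPM in NV. The groups overlapped, since IRV replicate 4 lay below NV replicate 3. The log2 difference was 0.28 ± 0.13 (SE; 95% interval 0.02 to 0.55; adjusted p = 0.102, edgeR). With the library set in the model it was 0.33 (adjusted p = 0.19, edgeR). Krt7 was called with library totals as the only scaling, at 0.79 (adjusted p = 0.000955, edgeR), a scaling that moved the median of all genes to 0.49. It was also called without the filter, at 0.59 (adjusted p = 0.0226, edgeR). That fit raised every keratin estimate, with Krt8 at 1.19 instead of 0.88.

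Krt18, the type I partner of Krt8, had 17.5, 20.1, 26.7 and 20.3 CPM in IRV, against 6.84, 4.78, 9.90 and 6.95 CPM in NV. The groups did not overlap, and the lowest IRV value belonged to a library with 17 Krt18 counts. Krt18 rose by 1.60 ± 0.36 (log2, SE; 95% interval 0.84 to 2.36; adjusted p = 0.00367, edgeR). The rise was 1.41 with the library set in the model (adjusted p = 0.0482, edgeR) and 1.39 among shallow libraries alone (adjusted p = 0.0201, edgeR).

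Krt19, the smallest keratin, had 4.11, 10.9, 11.5 and 9.72 CPM in IRV, against 0, 0.956, 0 and 1.54 CPM in NV. These stood for 4, 18, 81 and 76 counts in IRV and 0, 1, 0 and 2 counts in NV. Every IRV library was above every NV library, and the 2 NV libraries without a count allow up to 2.56 and 2.70 CPM (3 counts). Krt19 rose by 3.81 ± 0.69 (log2, SE; 95% interval 2.34 to 5.27; adjusted p = 0.000806, edgeR). Summed over the groups, 179 counts in IRV against 3 in NV gave a ratio of 15.8 after scaling (95% counting interval 5.31 to 77.2, which covers counting error only). With the library set in the model the difference was 3.58 (adjusted p = 0.00913, edgeR).

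Krt20 had 9.25, 2.43, 10.8 and 11.9 CPM in IRV, against 1.71, 0, 4.50 and 1.54 CPM in NV. The counts were 9, 4, 76 and 93 in IRV, against 2, 0, 5 and 2 in NV. Of the IRV libraries, 3 were above every NV library, while IRV replicate 2 was below NV replicate 3; the NV library without a count allows up to 2.87 CPM. Krt20 rose by 2.17 ± 0.72 (log2, SE; 95% interval 0.65 to 3.69; adjusted p = 0.0331, edgeR). This call was lost with the library set in the model, at 1.40 (95% interval -0.55 to 3.36; adjusted p = 0.37, edgeR). It was also lost without IRV replicate 3, IRV replicate 4, or NV replicate 1, 2 or 4, with adjusted p of 0.0829 to 0.0987 (edgeR). So 4 keratins rose in the fit on group alone and 3, namely Krt8, Krt18 and Krt19, with the set as a covariate. The differences with the set rest mainly on IRV replicates 1 and 2, which had 4 and 18 Krt19 counts. The fit with the set called 1915 of all 13614 tested genes, in either direction. With limma-voom Krt8 alone passed, Krt18, Krt19 and Krt20 standing at adjusted p of 0.0503, 0.127 and 0.287. Krt8, Krt18 and Krt19 had groups that did not overlap, in a comparison in which 15.1% of all tested genes were higher without overlap.

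Injury in mice given PJ34 was read from IRP against NP. Krt7, Krt8, Krt18 and Krt19 rose and Krt20 did not pass, so again 4 of 5 were higher, where 19.6% of all tested genes were. Here too the calls of Krt18 and Krt19 are not independent, since neither would have passed the filter without the injured kidneys. All IRP libraries are deep and all NP libraries shallow, so injury and library set cannot be told apart here except through the IRV group. With the set as a covariate, none of the 5 passed, and 450 of all 13614 tested genes did, in either direction.

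Krt8 had 122, 90.4, 95.2 and 82.2 CPM in IRP, against 48.0, 43.9, 48.9 and 43.0 CPM in NP. The groups were far apart, the lowest IRP library standing at 82.2 CPM. Krt8 rose by 1.09 ± 0.15 (log2, SE; 95% interval 0.78 to 1.40; adjusted p = 5.94e-05, edgeR), and with the set as a further term the difference was 0.81 (adjusted p = 0.0646, edgeR).

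Krt7 had 66.1, 71.7, 78.9 and 71.5 CPM in IRP, against 52.9, 50.6, 36.97 and 51.5 CPM in NP. No IRP library overlapped with NP. Krt7 rose by 0.58 ± 0.12 (log2, SE; 95% interval 0.32 to 0.84; adjusted p = 0.00134, edgeR), and with the set as a further term the difference was 0.66 (adjusted p = 0.0887, edgeR).

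Krt18 had 37.8, 17.6, 25.1 and 25.4 CPM in IRP, against 13.5, 2.23, 8.70 and 4.69 CPM in NP. The groups did not overlap, although NP replicate 1 came near IRP replicate 2. Krt18 rose by 1.94 ± 0.35 (log2, SE; 95% interval 1.19 to 2.69; adjusted p = 0.00051, edgeR), and with the set as a further term the difference was 1.65 (adjusted p = 0.103, edgeR).

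Krt19 had 17.0, 8.15, 15.6 and 9.58 CPM in IRP, against 2.88, 1.49, 2.17 and 0 CPM in NP, or 141, 45, 106 and 60 counts against 3, 2, 2 and 0. Every IRP library was above every NP library, and the NP library without a count allows up to 2.34 CPM. Krt19 rose by 3.00 ± 0.57 (log2, SE; 95% interval 1.80 to 4.20; adjusted p = 0.000647, edgeR). The ratio of summed counts, 352 against 7, was 8.58 after scaling (95% counting interval 4.12 to 21.5). With the set as a covariate the difference was 2.64 (adjusted p = 0.0808, edgeR), and limma-voom gave 3.06 (adjusted p = 0.0979).

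Krt20 had 9.79, 2.54, 6.46 and 2.24 CPM in IRP, against 2.88, 0.744, 1.09 and 1.56 CPM in NP. IRP replicates 1 and 3 were above all NP libraries, and IRP replicates 2 and 4 lay below NP replicate 1. The log2 difference was 1.76 ± 0.76 (SE; 95% interval 0.17 to 3.35; adjusted p = 0.069, edgeR), and with the set as a further term it was 0.67 (adjusted p = 0.81, edgeR). Krt20 was called with library totals only, at 2.39 (adjusted p = 0.012, edgeR), and without the filter, at 2.19 (adjusted p = 0.0123, edgeR). Library totals moved the median of all genes to 0.57. The fit without the filter raised every keratin estimate, with Krt8 at 1.52 instead of 1.09. Of the 5 keratins, the 4 called ones were also the 4 without overlap, where 19.6% of all tested genes were higher without overlap.

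**Figure D2:**
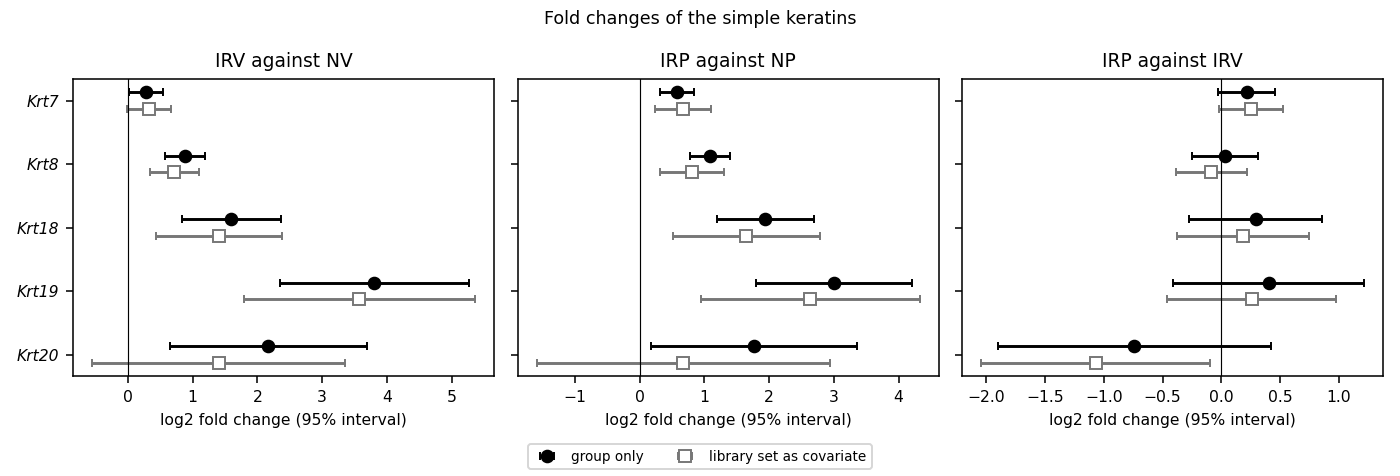
Log2 fold changes of the 5 keratins (x axis, with 95% intervals) in 3 comparisons, from the fit on group alone (black circles) and the fit with the library set as a further term (open squares). In IRV against NV the estimates run from 0.28 for Krt7 to 3.81 for Krt19, and in IRP against IRV the 5 black intervals include 0, while the open interval of Krt20, -2.04 to -0.097, does not (adjusted p = 1, edgeR).

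Whether PJ34 moved the keratins of the injured kidney was read from IRP against IRV. None of the 5 keratins passed (edgeR), and neither did any other gene, so 0.0% of tested genes were called; 1832 genes had an unadjusted p under 0.05, and DESeq2 called 1282 genes and no keratin. Krt8 averaged 97.4 ± 17.1 CPM in IRP and 94.6 ± 14.0 CPM in IRV (SD, n = 4 each), so that the log2 values differed by 0.03 (95% interval -0.25 to 0.31). Its sign turned in 6 of the alternative settings, among them the fit with the set as a further term, at -0.0857. Several of these overlap. The fits with the set, within the deep libraries and without IRV replicates 1 and 2 all rest on IRV replicates 3 and 4. Krt7 averaged 72.1 ± 5.23 CPM in IRP and 62.3 ± 3.73 CPM in IRV, with 0.22 between them on the log2 scale (-0.02 to 0.46; adjusted p = 0.474, edgeR). Krt7 was the only keratin whose IRP and IRV libraries did not overlap, at 66.1 CPM and above in IRP and 64.8 CPM and below in IRV; 1.51% of tested genes were higher without overlap.

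Krt18 averaged 26.5 ± 8.39 CPM in IRP and 21.1 ± 3.92 CPM in IRV (SD, n = 4 each), with 0.29 between them (log2; -0.27 to 0.86). Krt19 averaged 12.6 ± 4.37 CPM in IRP and 9.07 ± 3.39 CPM in IRV, with 0.40 between them (log2; -0.41 to 1.22). Without IRP replicates 1 and 3, the Krt19 difference was -0.0634. Krt20 averaged 5.26 ± 3.58 CPM in IRP and 8.59 ± 4.25 CPM in IRV, with -0.74 between them (log2; -1.90 to 0.42; adjusted p = 0.732, edgeR). It was the single keratin with a lower mean in IRP. Within the deep libraries the Krt20 difference was -1.07 (-2.21 to 0.06), and without IRP replicates 1 and 3 it was -1.85 (-3.50 to -0.19; adjusted p = 0.365, edgeR). Within the deep libraries the other 4 keratins differed by 0.25 (Krt7), -0.0883 (Krt8), 0.18 (Krt18) and 0.26 (Krt19), and none passed. Differences of these sizes were not separated from the spread between libraries.

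The effect of PJ34 in uninjured kidneys was read from NP against NV. No keratin passed (adjusted p = 1 for each, edgeR) and 0.0% of tested genes were called, with 501 at an unadjusted p under 0.05 and 4 genes called by DESeq2. Krt8 averaged 46.0 ± 2.97 CPM in NP and 51.7 ± 7.48 CPM in NV (SD, n = 4 each), with -0.18 between them (log2; -0.51 to 0.16). Krt7 averaged 48.0 ± 7.40 CPM in NP and 50.8 ± 7.08 CPM in NV, with -0.08 between them (log2; -0.36 to 0.20). Krt18 averaged 7.27 ± 4.91 CPM in NP and 7.12 ± 2.11 CPM in NV, with a log2 interval of -1.02 to 0.92. Krt19 had 7 counts in NP and 3 in NV, and Krt20 had 7 in NP and 9 in NV, too few to show a difference at this depth. No keratin separated the 2 groups, where 2.43% of tested genes did in either direction.

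The test of whether injury moved the keratins differently with and without PJ34 passed for none of the 5 and for no gene (edgeR; 0.0% called, 1550 genes at an unadjusted p under 0.05, and 22 genes but no keratin called by DESeq2). The difference between the 2 injury effects was 0.29 for Krt7 (95% interval -0.08 to 0.66), 0.21 for Krt8 (-0.23 to 0.65) and 0.34 for Krt18 (-0.79 to 1.47) on the log2 scale. It was -0.81 for Krt19 (-3.03 to 1.42) and -0.41 for Krt20 (-2.78 to 1.96). Leaving out 1 library at a time moved it between -1.84 and -0.39 for Krt19, between 0.00663 and 0.83 for Krt18 and between -1.18 and 0.0167 for Krt20. That Krt7 was called in IRP against NP only, and Krt20 in IRV against NV only, is thus not shown to be a difference between the treatments.

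Low counts were read against genes that the kidney is not known to use. The table lists 21 hair keratins, which build hair and nail and were chosen for this purpose after the data had been seen. Their mean level per gene was 0.956 to 1.96 CPM in the 10 shallow libraries, against 0.0210 to 0.0913 CPM in the 6 deep ones. In the NP and NV libraries with a Krt19 count, 5 to 13 of the 21 hair keratins had as many counts as Krt19 or more. In those with a Krt20 count, 0 to 15 had as many as Krt20 or more. Where Krt19 or Krt20 had no count, all 21 meet this whatever their own counts. In the injured libraries no hair keratin had as many counts as Krt19 or Krt20, except for 4 against Krt19 in IRV replicate 1 and 3 against Krt20 in IRV replicate 2. In summed counts per gene over 4 libraries, hair keratins averaged 1.24 in IRP, 4.67 in IRV, 6.05 in NP and 5.90 in NV. Krt19 summed to 352 counts in IRP, 179 in IRV, 7 in NP and 3 in NV. Krt20 summed to 153 counts in IRP, 182 in IRV, 7 in NP and 9 in NV. Krt18 stood clear of that level in most uninjured libraries, with 31 counts in NP and 33 in NV. Its counts were 5 in NV replicate 2, 3 in NP replicate 2 and 6 in NP replicate 4, where 4, 2 and 1 hair keratins had as many or more.

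**Figure D3:**
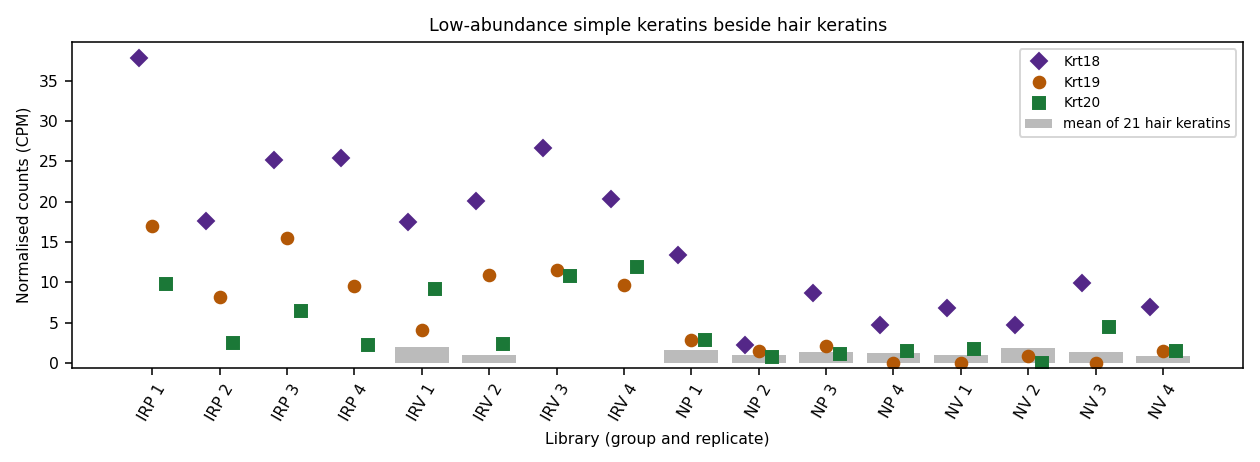
Normalised counts (CPM) of Krt18, Krt19 and Krt20 in each library, with the mean of 21 hair keratins as grey bars. The bars reach 0.956 to 1.96 CPM in the 10 shallow libraries and stay at or under 0.0913 CPM in the 6 deep ones. Krt19 and Krt20 lie near the bars in most NP and NV libraries, with Krt20 at 4.50 CPM in NV replicate 3. They lie above the bars in IRP and IRV, although 4 hair keratins reached the Krt19 count in IRV replicate 1 and 3 the Krt20 count in IRV replicate 2.

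The make-up of the keratin pool was also compared, since a ratio of 2 keratins in one library does not depend on library scaling. It may still depend on the library set, which was not part of these comparisons. Krt7 made up 26.2 to 37.7% of the counts of the 5 keratins in IRP and 28.3 to 36.2% in IRV, against 37.8 to 51.2% in NP and 39.3 to 51.2% in NV. Krt8 held 43.0 to 48.2% in IRP and 44.8 to 50.0% in IRV, against 40 to 50.0% in NP and 36.2 to 55.4% in NV. Krt19 made up 4.28 to 7.04% in IRP and 2.19 to 6.21% in IRV, against 0 to 2.40% in NP and 0 to 1.32% in NV. Longer transcripts give more counts, so these are shares of counts and not of molecules.

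On the log2 scale, with 0.5 added to each count, the Krt19 to Krt8 ratio was -3.43 ± 0.641 in IRV and -5.92 ± 1.00 in NV (SD, n = 4 each), a difference of 2.50 (exact permutation p = 0.0286, two-sided, the smallest this design allows; adjusted p = 0.229). It was -3.00 ± 0.365 in IRP and -4.85 ± 1.33 in NP, a difference of 1.85 (exact permutation p = 0.0286; adjusted p = 0.229). In both comparisons every injured library was above every uninjured one. NP replicate 4 and NV replicates 1 and 3 had no Krt19 count, so their ratios rest on the added 0.5. The Krt7 to Krt8 ratio was -0.59 ± 0.229 in IRV and -0.02 ± 0.407 in NV, a difference of -0.57 (exact permutation p = 0.0571; adjusted p = 0.305). It was -0.42 ± 0.311 in IRP and 0.05 ± 0.304 in NP, a difference of -0.47 (exact permutation p = 0.114; adjusted p = 0.305). The Krt18 to Krt8 ratio differed by 0.66 between IRV and NV and by 0.94 between IRP and NP (exact permutation p = 0.114 each). The Krt20 to Krt8 ratio differed by 1.26 between IRV and NV and by 0.20 between IRP and NP (exact permutation p = 0.314 and 0.743). Leaving out 1 library at a time, the Krt20 to Krt8 difference lay between 0.56 and 1.85 for IRV against NV and between -0.0688 and 0.46 for IRP against NP, and the Krt18 to Krt8 difference between 0.43 and 0.93 and between 0.53 and 1.29. None of the 16 ratio tests passed after Benjamini-Hochberg adjustment, and the 4 between IRP and IRV had exact permutation p of 0.171 to 0.4.

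**Figure D4:**
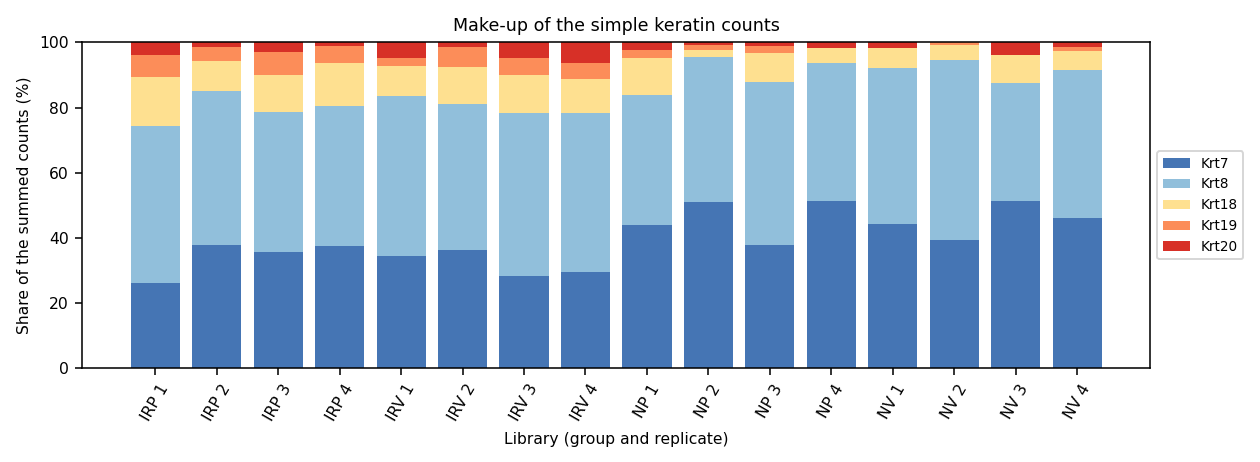
Share of the summed counts of the 5 keratins (%) that each keratin holds in each library. Krt7 holds 26.2 to 37.7% in the injured libraries (IRP and IRV) and 37.8 to 51.2% in the uninjured ones (NP and NV); shares of the low members rest on few counts in the shallow libraries.

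Among the 50 keratins in the table, the 5 described here held 86.8 to 91.02% of all keratin counts in the deep libraries and 50.2 to 72.5% in the shallow ones. Hair keratins held 0.173 to 0.890% in the deep and 8.50 to 18.8% in the shallow libraries. Of the other 45 keratins 2 passed the filter. Krt80, a type II keratin next to Krt7 on chromosome 15, differed by 0.06 in IRV against NV (adjusted p = 0.876, edgeR) and rose by 0.62 ± 0.23 in IRP against NP (log2, SE; adjusted p = 0.0414, edgeR), where it lost its call with the set as a covariate (0.11; adjusted p = 0.949, edgeR). Krt222 fell by 3.42 ± 0.70 in IRP against NP (log2, SE; adjusted p = 0.00106, edgeR), but it had 0.906 to 2.24 CPM in all deep and 7.69 to 26.8 CPM in all shallow libraries, IRV included, and was not called with the set as a covariate (-0.23; adjusted p = 0.897, edgeR). Outside the keratins, Eif4b, the gene beyond Krt18 on chromosome 15, differed by 0.04 in IRV against NV (adjusted p = 0.862, edgeR).

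Of the stratified epithelial genes, Krt15 was highest in 2 IRP libraries. Krt15, a keratin of basal cells and the neighbour of Krt19 on chromosome 11, had 76 counts in IRP replicate 1 and 44 in IRP replicate 3, or 9.18 and 6.46 CPM, against at most 3.04 CPM in any other library. Krt5, a basal cell keratin, had 3.75 and 3.82 CPM in these 2 libraries, but 4.80 CPM in NP replicate 1. Krt14, its partner, had 1.21 and 0.734 CPM there, against up to 3.26 CPM in NP, and Trp63, a transcription factor of basal cells, had 3.99 and 3.52 CPM, against 3.72 to 13.5 CPM in NP. The NP libraries are shallow, and hair keratins averaged 0.956 to 1.96 CPM in shallow libraries. In the other deep libraries Krt15 had 0 to 0.798 CPM, Krt5 0.128 to 0.710 and Krt14 0 to 0.426 CPM, all below IRP replicates 1 and 3. Trp63 had 2.24 to 3.98 CPM in those deep libraries and was not set apart. Replicates 1 and 3 were also the IRP libraries with the highest Krt19, at 17.0 and 15.6 CPM, and the highest Krt20, at 9.79 and 6.46 CPM. Without these 2 libraries, IRP against NP still had 4 keratins higher, with Krt7 at 0.61, Krt8 at 0.95, Krt18 at 1.66 and Krt19 at 2.51 (log2; adjusted p = 0.0141, 0.00155, 0.0121 and 0.0241, edgeR), and Krt20 at 0.65 (adjusted p = 0.614, edgeR). IRP replicate 1 further held 25 counts of Upk1a and 21 of Upk3a, uroplakins of urothelial surface cells. Psca, also on the urothelial list, had 3.62 to 5.32 CPM in IRP and 0 to 3.98 CPM in IRV. It had 0 to 1.49 CPM in NP and 0 to 0.772 CPM in NV. Psca was thus not confined to IRP replicates 1 and 3, and leaving them out did not remove it. The summed level of the 13 urothelial genes was 16.8 to 33.8 CPM in IRP, 11.8 to 26.7 in IRV, 11.9 to 31.7 in NP and 14.4 to 27.7 CPM in NV, with 10 to 12, 9 to 12, 6 to 8 and 6 to 8 of the genes having a count. Among the deep libraries this sum was 33.8 CPM in IRP replicate 1 and 23.6 CPM in IRP replicate 3, against 11.8 to 20.2 CPM in the others. Upk2 and Upk3a were at 0 in all NP and NV libraries. The part of urothelium in the keratin results was not tested.

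Other cell types with these keratins, or without them, moved as follows. The 18 collecting duct genes summed to 675 to 1308 CPM in IRP, 781 to 1017 in IRV, 883 to 980 in NP and 864 to 932 CPM in NV. Of the 17 tested, IRV had 1 higher and 2 lower against NV, with a median log2 change of 0.04, and IRP had 4 higher and 1 lower against NP. Over all tested genes IRV had 15.9% higher and 11.1% lower against NV, and IRP had 19.6% higher and 24.0% lower against NP. No collecting duct gene was higher in either comparison with the set as a further term, and 1 was lower in IRV against NV and 0 in IRP against NP. Of 11 loop of Henle and distal tubule genes, 5 were lower in IRV than in NV and 4 in IRP than in NP, with none higher; with the set as a further term the lower genes were 2 and 0. The 8 podocyte and parietal epithelium genes summed to 859 to 966 CPM in IRP, 741 to 1106 in IRV, 497 to 535 in NP and 459 to 543 CPM in NV, and 7 of 8 were higher in each injury comparison. Of these, 7 were higher in IRV against NV and 1 in IRP against NP with the set as a further term. The 9 mesothelial genes summed to 77.0 to 131 CPM in IRP, 98.0 to 126 in IRV, 115 to 157 in NP and 117 to 156 CPM in NV; of 4 tested, IRV had 1 higher and 1 lower against NV, and IRP had 1 higher and 2 lower against NP. In the model with the set, 1 mesothelial gene was higher in IRV against NV and none was called in IRP against NP.

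Cells without these keratins moved with injury as well. Of 12 macrophage genes, all 12 were higher in both injury comparisons, with summed levels of 474 to 1252 CPM in IRP and 646 to 1064 in IRV, against 87.0 to 160 in NP and 86.1 to 123 CPM in NV. Of 11 fibroblast genes 9 were higher in each injury comparison, and of 9 endothelial genes 3 were higher in IRV than in NV and 4 in IRP than in NP. Over all tested genes 15.9% were higher in IRV against NV and 19.6% in IRP against NP. In the model with the set, 12 macrophage, 9 fibroblast and 0 endothelial genes were higher in IRV against NV, and 8, 9 and 0 in IRP against NP. The part of these shifts in the keratin results was not tested.

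Desmosomes are the junctions at which keratin filaments are anchored. Of 11 tested desmosome genes, IRV had 2 higher and 1 lower against NV (15.9% and 11.1% of all tested genes), with a median log2 change of -0.11 beside -0.03 over all genes. Dsp, which encodes desmoplakin, the anchor of keratin filaments at the desmosome, rose by 1.19 ± 0.12 (log2, SE; adjusted p = 7.75e-06, edgeR), and Pkp4, a plakophilin-related gene, fell by 0.58 ± 0.14 (adjusted p = 0.00453, edgeR). Pkp3, a plakophilin, rose by 0.70 ± 0.24 (adjusted p = 0.038, edgeR) and lost its call with the set as a covariate (adjusted p = 0.167, edgeR). In IRP against NP 4 of the 11 were higher and 4 lower (19.6% and 24.0% of all tested genes), with Dsp at 1.28 ± 0.12. Of the 4 higher genes only Dsp was called with the set as a covariate (adjusted p = 0.00785, edgeR). The lower 4 were Dsg1a, Dsg3, Dsc2 and Dsc3, desmosomal cadherins named after their values were seen, and none was called with the set as a covariate (adjusted p = 0.461 to 0.766, edgeR).

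Of 14 genes for keratin linkers and binding proteins, IRV had 7 higher and none lower against NV (15.9% and 11.1% of all tested genes). The median log2 change was 0.57. Hspb1, a small heat shock protein that binds intermediate filaments, rose by 3.03 ± 0.49 (log2, SE; adjusted p = 0.000306, edgeR). Ppl, periplakin, rose by 2.31 ± 0.27 (adjusted p = 2e-05, edgeR), and Plec, plectin, which ties filaments to adhesion sites, by 1.16 ± 0.12 (adjusted p = 1.17e-05, edgeR). In IRP against NP 7 of 14 were higher (19.6% of all tested genes). Ppl stood at 2.86 ± 0.28 and Plec at 1.39 ± 0.12 there. With the set as a covariate 4 were higher in IRV against NV and 2 in IRP against NP.

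Other intermediate filament genes were higher too, 5 of 7 tested in IRV against NV and 6 of 7 in IRP against NP, with medians of 1.37 and 0.96. Over all tested genes 15.9% and 19.6% were higher. Vim, which encodes vimentin of mesenchymal and dedifferentiated epithelial cells, averaged 132 ± 33.3 CPM in IRP, 119 ± 17.7 in IRV, 32.3 ± 7.31 in NP and 27.4 ± 6.23 CPM in NV (SD, n = 4 each). It rose by 2.13 ± 0.22 in IRV against NV (log2, SE; adjusted p = 7.75e-06, edgeR). Nes, nestin, rose by 1.54 ± 0.18 (adjusted p = 2.32e-05, edgeR) and Des, desmin of muscle and podocytes, by 1.61 ± 0.34 (adjusted p = 0.00247, edgeR). In the model with the set, 3 of the 7 were higher in IRV against NV and 2 in IRP against NP.

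Tubular injury and dedifferentiation genes were higher for 24 of 27 tested members in IRV against NV and 25 of 27 in IRP against NP, with medians of 2.15 and 2.08. Over all tested genes 15.9% and 19.6% were higher. Itgb8, an integrin chain, was lower in IRP against NP. Dcdc2a, a microtubule-binding gene, rose by 2.82 ± 0.25, Spp1, osteopontin, by 2.15 ± 0.18 and Cd24a, a surface protein of progenitor-like epithelium, by 1.72 ± 0.14 in IRV against NV (log2, SE; adjusted p = 5.15e-06, 3.03e-06 and 3.03e-06, edgeR). Of 22 proximal tubule identity genes, 19 were lower in IRV than in NV and 16 in IRP than in NP, and none was higher, with medians of -0.98 and -0.81; over all tested genes 11.1% and 24.0% were lower. Slc13a3, a dicarboxylate transporter, fell by 1.22 ± 0.15 in IRV against NV (log2, SE; adjusted p = 2.79e-05, edgeR). With the set as a further term the calls in IRV against NV were 23 injury genes up and 19 proximal tubule genes down. In IRP against NP these counts were 16 and 4.

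Epithelial adhesion genes were higher for 15 of 18 tested in IRV against NV and 14 of 18 in IRP against NP, with medians of 0.81 and 0.92. Over all tested genes, 15.9% and 19.6% were higher and 11.1% and 24.0% lower in these 2 comparisons. Cldn4, a tight junction claudin, rose by 2.23 ± 0.30 in IRV against NV (log2, SE; adjusted p = 6.72e-05, edgeR), Cdh6, a cadherin of the developing tubule, by 1.97 ± 0.27 and Tjp1, the ZO-1 scaffold, by 0.99 ± 0.14. Of 22 epithelial transcription factor genes, 14 were higher and none lower in IRV against NV, and 15 were higher and 1 lower in IRP against NP, with medians of 0.89 and 1.14. Ehf, an ETS factor of epithelia, rose by 1.47 ± 0.16, and the AP-1 genes Fosl2 and Junb by 1.92 ± 0.26 and 2.28 ± 0.32, in IRV against NV (log2, SE; adjusted p = 1.21e-05, 6.42e-05 and 8.92e-05, edgeR). With the set as a covariate 8 adhesion and 9 factor genes were higher in IRV against NV, and 3 adhesion and 3 factor genes in IRP against NP. In IRP against IRV and in NP against NV, no gene of any of these lists was called.

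**Figure D5:**
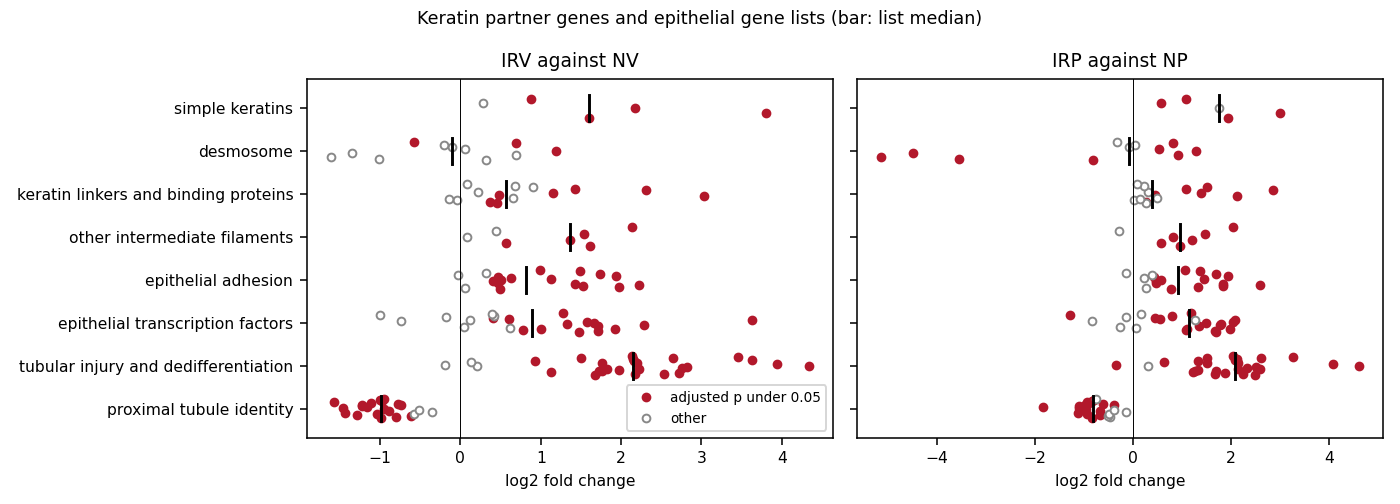
Log2 fold changes of the genes of 8 lists (points; filled where the adjusted p is under 0.05) with the list median as a bar, for IRV against NV (left) and IRP against NP (right). Injury genes centre at 2.15 and 2.08 and proximal tubule genes at -0.98 and -0.81, while the desmosome list centres at -0.11 and -0.08; the keratins are the top row.

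The genes most like each keratin were taken by Pearson's r of log2 CPM over the 16 libraries, among 11732 genes. These values are descriptions: the libraries share injury and depth, and every r over 16 holds both. Krt8 was closest to Son (r = 0.97), Zfp36l1 (r = 0.97) and Ptma (r = 0.96), and Krt18 to Fndc1 (r = 0.97), Ccdc80 (r = 0.96) and Serpinb6a (r = 0.96). Krt19 was closest to Ehbp1l1 (r = 0.95), Bcl9l (r = 0.94) and Stom (r = 0.93), and Krt20 to Foxp4 (r = 0.90), Fhl2 (r = 0.89) and Il33 (r = 0.88). Krt7 was closest to Pmp22, Adora1 and Tmem127 (r = 0.90 each), and over the 8 injured libraries alone these 3 had r of 0.00115, 0.29 and 0.62. Fndc1 with Krt18 had r = 0.95 and Son with Krt8 r = 0.86 over the 8 injured libraries. Among the keratins themselves, over the 8 injured libraries, r ran from -0.46 for Krt7 with Krt20 to 0.78 for Krt18 with Krt19 among the 10 pairs. Over the 8 uninjured libraries it ran from -0.63 for Krt8 with Krt20 to 0.66 for Krt7 with Krt20. Krt8 with Krt20 had 0.74 over the injured libraries, and Krt18 with Krt19 had 0.12 over the uninjured ones.

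Havcr1, the gene of kidney injury molecule 1, averaged 65.2 ± 41.5 CPM in IRP and 110.5 ± 24.2 CPM in IRV, against 2.74 ± 1.37 CPM in NP and 5.63 ± 4.22 CPM in NV (SD, n = 4 each). IRP replicate 2 had the lowest Havcr1 of the injured libraries, at 21.7 CPM, and held the lowest Krt18 and Krt19 of IRP and a Krt20 of 2.54 CPM. IRP replicate 4 had 83.3 CPM of Havcr1 and 2.24 CPM of Krt20, the lowest Krt20 of all 8 injured libraries. The libraries high in Havcr1 were thus not uniformly the libraries high in Krt20.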

How the data were processed

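The submitters' processing notes name FastQC 0.11.3, Trim Galore 0.6.6, Salmon 1.3.0, DESeq2 1.30.1 and the build GRCm39, without roles or settings. Deposited values are the authors' expected counts per gene, already whole numbers; Salmon divides reads among similar transcripts. Symbols were matched by Ensembl ID for 40276 of 40472 genes.

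Counts were filtered with filterByExpr of edgeR 4.0.16 (minimum count 10; 13614 genes kept), TMM-scaled and tested by its quasi-likelihood test in R 4.3.3, with all 16 libraries in 1 fit on group. Adjusted p-values are Benjamini-Hochberg values over all tested genes, threshold 0.05. Transcript lengths came from GENCODE M21. The members and gene lists were chosen with earlier results of these data known, so no list count is independent support. Named genes are the 5 keratins, other keratins passing the filter, up to 3 genes of smallest p per list in IRV against NV and the 3 most similar genes per keratin; not all are described. Ratios were compared with SciPy 1.17.1. Alternatives covered scaling, filter, tool (limma 3.58.1 voom, DESeq2 1.42.0), library set, replicate block and left-out libraries. The scripts were tested on simulated data. Same-numbered libraries had deviations correlated at -0.23 to 0.26, which cannot exclude pairing, and numbers were not treated as pairs. No libraries agreed within sampling noise.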

Additional observations from a re-analysis of the deposited data

Results flagged for a closer look

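Krt7 in IRV had its lowest library, replicate 4, at 56.8 CPM, far below the other 3 libraries at 63.8 to 64.8 CPM. Krt7 in NP had its lowest library, replicate 3, at 36.97 CPM, below the other 3 at 50.6 to 52.9 CPM. In each case the gap to the nearest library, as a share of the group's range, passed Dixon's 95% critical value for 4 libraries. Chance flags about 1 in 20 groups, and 2 of the 20 combinations of keratin and group examined were flagged. Without IRV replicate 4 the call of Krt7 in IRV against NV did not change.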

How the results depend on the processing

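No setting listed here turned the direction of a called keratin; where calls changed, the cause was not tested. For IRV against NV, 4 keratins were called in the reported fit, 1 with limma-voom, 2 of the 3 tested with only these groups, 2 of the 3 tested within the shallow libraries, and 3 to 4 with 1 library left out. For IRP against NP the count was 4, then 0 with the library set as a further term and 4 with any 1 library left out. Over all genes, IRV against NV had 3673 calls, 5962 with library totals only, 1915 with the set as a covariate, 1729 within the shallow libraries, 6665 without IRV replicates 1 and 2, and 2483 to 4759 with 1 library left out. IRP against NP had 5935 calls, 16733 without the filter, 450 with the set as a covariate, 3587 without IRP replicates 1 and 3, and 5160 to 6443 with 1 left out. IRP against IRV had 0 calls, 422 with library totals only, 1093 without the filter, 1282 with DESeq2 and 0 to 1460 with 1 left out, 1460 being the count without IRV replicate 3 or 4. NP against NV had 0 calls, 2 without the filter, 4 with DESeq2, 3 with only these groups and 0 to 1 with 1 left out. The interaction had 0, 22 with DESeq2 and 0 to 419 with 1 left out, 419 being the count without IRV replicate 3. In none of the last 3 comparisons was a keratin called.

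Signs turned only in differences that were not called. Krt8 in IRP against IRV was -0.0857 with the set as a further term, -0.0883 within the deep libraries, -0.0899 without IRP replicate 1, -0.0457 without IRV replicate 2, -0.13 without IRP replicates 1 and 3 and -0.0774 without IRV replicates 1 and 2. Krt19 there was -0.0634 without IRP replicates 1 and 3. In NP against NV, Krt18 was 0.29, 0.11 and 0.14 without NP replicate 2, NP replicate 4 and NV replicate 3, Krt7 was 0.0161 without NP replicate 3 and Krt20 was 0.43 without NV replicate 3; with 1 library left out the lowest values there were -0.55 for Krt18, -0.16 for Krt7 and -0.77 for Krt20. The interaction of Krt20 ran between -1.18 without NV replicate 3 and 0.0167 without NP replicate 1. Leaving out 1 library moved the Krt19 to Krt8 difference between 2.15 and 2.87 in IRV against NV and between 1.21 and 2.19 in IRP against NP.

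With the replicate number as a block, 4 keratins were called in IRV against NV and 5 in IRP against NP, where Krt20 had 1.67 (adjusted p = 0.0425, edgeR), and 3675 genes were called in IRV against NV. The numbers were not treated as pairs. Of 24 same-numbered pairs, 5 had deviations correlated over 0.1, within -0.23 to 0.26. Pairs of different numbers were not set beside them, so this check cannot exclude pairing. The settings that leave out IRP replicates 1 and 3, or IRV replicates 1 and 2, were chosen after seeing the data. Depth limits Krt19 and Krt20 in the shallow libraries, where they had 0 to 18 counts.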
